A study of Mus musculus with 4 samples.

Results

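The MHC class I antigen presentation genes examined here are 10 named genes of the 24421 in the count files. These genes were taken by symbol for their known roles, with earlier results of these data known. They are B2m, H2-K1, H2-D1, Tap1, Tap2, Tapbp, Psmb8, Psmb9, Psmb10 and Nlrc5. All 10 were found, and all 10 had fragments in every library. The Illumina TruSeq data hold 4 libraries of R1 cells, an established line of mouse embryonic stem cells (ESCs), with 2 replicates of Undiff and 2 of Day4. The replicates are described as distinct samples, grown and treated separately. Each library held between 32099074 and 47730944 fragments on genes.

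Undiff was R1 cells kept in growth medium with serum, which the methods describe as ESCs maintained with leukaemia inhibitory factor, a cytokine used to keep them from differentiating. In the sample labels Undiff is instead given as embryoid bodies, which are floating aggregates of differentiating ESCs. Day4 was embryoid bodies grown for 4 days without leukaemia inhibitory factor and then for 4 days in the presence of retinoic acid (RA), which derives from vitamin A and drives differentiation. The dose of RA was 2 µM in the methods and in the design text, and 2 mM in the sample labels. The states therefore differed in culture form, cytokine, time and RA together, and their parts in any difference below cannot be told apart. The labels name no deletion or transgene in either state. Embryoid bodies hold a mixture of cell types, and in such bulk RNA fewer cells of a type and less RNA per cell cannot be told apart.

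MHC class I molecules display peptides from inside the cell to CD8+ T cells and natural killer cells. Proteins are cut by the proteasome, in which the immunoproteasome subunits Psmb8, Psmb9 and Psmb10 can replace the constitutive subunits Psmb5, Psmb6 and Psmb7. The peptides are pumped into the endoplasmic reticulum by the transporter made of Tap1 and Tap2, and tapasin (Tapbp) bridges this transporter to a heavy chain such as H2-K1 or H2-D1 bound to the light chain B2m. Nlrc5 is a nuclear coactivator of class I promoters, and interferon raises many of these genes in differentiated cells. ESCs and early embryonic cells are known for low class I levels.

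In the annotation GENCODE vM21 on GRCm38, 7 of the 10 genes lie in the MHC region of chromosome 17. Tapbp (chr17:33915899-33929292, plus strand) and H2-K1 (chr17:33996017-34000347, minus strand) are followed by a tight group of peptide-supply genes. This group holds Psmb9 (chr17:34181987-34187764, minus strand), Tap1 (chr17:34187553-34197225, plus strand), Psmb8 (chr17:34197721-34201454, plus strand) and Tap2 (chr17:34203527-34216321, plus strand). H2-D1 (chr17:35262730-35267499, plus strand) lies at the far end. B2m is on chromosome 2 (chr2:122147686-122153083, plus strand). Psmb10 (chr8:105935735-105938444, minus strand) and Nlrc5 (chr8:94434356-94527272, plus strand) are both on chromosome 8. All 10 are annotated as protein coding. Tap1 and Psmb9 are transcribed from opposite strands and share exon sequence, as do Tapbp with Zbtb22 and Nlrc5 with 9330175E14Rik.

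Class I promoters carry conserved elements, among them an X2 box related to cyclic AMP response elements and a Y box that holds an inverted CCAAT. Factors bound to such elements form a complex that recruits Nlrc5. The RefSeq promoter table (GRCm38.p6) held 8 of the 10 genes. Each was searched over the 250 bases before the start for TGACG followed by ATTGG, with 15 to 25 bases between them, on both strands. The letters were chosen from the known elements with these promoters in view. The arrangement was found in B2m, H2-K1 and H2-D1, each time with exactly 20 bases between, and not in Tap1, Tapbp, Psmb8, Psmb9 or Psmb10. The windows of Tap1, Tapbp, Psmb8 and Psmb9 lay wholly within vM21 exons, those of Tapbp and Psmb8 inside the bounds of their genes. The lack of a match in them, for this or other letters, holds only for the RefSeq starts used. Over all windows of the same length, the arrangement was found in 125 of 32851, or 0.381%. With exactly 20 bases between, 30 windows (0.0913%) held the arrangement. Among them was H2-M3, with a log2 fold change of -0.90 in Day4 over Undiff. By the thresholds given below, 96 genes with 15 to 25 bases between were tested, and 20 rose and 17 fell. Over all genes tested, 22.2% rose and 20.6% fell. The stretches are shown because these 3 genes share them and yet moved in opposite directions. TGACG and ATTGG are in capitals, and each is written 5′ to 3′ on the strand of its gene.
H2-K1 (chr17:34000359-34000388, minus strand): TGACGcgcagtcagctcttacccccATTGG
H2-D1 (chr17:35262993-35263022, plus strand): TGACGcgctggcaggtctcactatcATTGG
B2m (chr2:122147609-122147638, plus strand): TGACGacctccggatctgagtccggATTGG
The stretch lies 41 to 12 bases before the start of H2-K1, 101 to 72 bases before that of H2-D1 and 78 to 49 bases before that of B2m. A further H2-K1 start in the table places it 55 to 26 bases before the start. In H2-D1 it lies within an exon of a longer vM21 transcript, so no more of that promoter is printed.

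The same 3 windows were the only ones among the 8 that held the interferon regulatory factor core AANNGAAA, found in 21.3% of all windows on either strand, and the NF-kB consensus, found in 7.25%. The windows of H2-K1 and B2m are shown whole up to the annotated exon, as the pair with the heaviest counts on each side of the split. Capitals mark, in order along H2-K1, the NF-kB consensus (2 overlapping matches), the interferon core on the opposite strand, TGACG and ATTGG. In B2m the interferon core comes first, then the NF-kB consensus on the opposite strand, TGACG and ATTGG.
H2-K1 (chr17:34000348-34000597, minus strand): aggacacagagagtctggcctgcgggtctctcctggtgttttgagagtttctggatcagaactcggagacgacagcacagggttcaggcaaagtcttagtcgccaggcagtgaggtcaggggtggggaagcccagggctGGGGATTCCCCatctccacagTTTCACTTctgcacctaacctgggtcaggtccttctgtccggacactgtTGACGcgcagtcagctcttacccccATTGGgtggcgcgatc
B2m (chr2:122147437-122147685, plus strand): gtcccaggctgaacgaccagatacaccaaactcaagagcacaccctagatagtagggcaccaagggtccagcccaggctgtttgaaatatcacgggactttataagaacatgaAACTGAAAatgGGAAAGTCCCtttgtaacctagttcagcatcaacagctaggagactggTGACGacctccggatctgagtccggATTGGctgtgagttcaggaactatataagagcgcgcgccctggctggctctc
A match is a description of letters and not of binding, which was not measured in these libraries.

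Of the 10 genes, 8 fell in Day4, B2m rose, and Tapbp was not called. Genes were called differentially expressed (DEGs) when the adjusted p-value was 0.05 or lower, the log2 fold change was 1 or more in either direction, and the normalized counts averaged 5 or more. Among the 19891 genes tested, 42.8% were DEGs, so the transcriptome as a whole had changed widely: 20.6% were lower in Day4 and 22.2% were higher. Against this background, 9 of the 10 genes were DEGs. The median log2 fold change of the 10 was -2.40, beside -0.03 over all genes tested. As the 10 were chosen with earlier results of these data known, this contrast is only a description. The values of Undiff and Day4 did not overlap for any of the 10, with 9 lower and 1 higher in Day4, where 42.7% of all genes tested did not overlap and were lower and 42.7% did not overlap and were higher. Adjusted p-values quoted below for single genes are from an edgeR quasi-likelihood fit with a low-count filter and a robust prior, added after the data were seen, because the fit over all genes gave each gene the same spread. Standard errors are still from the fit over all genes unless stated, and so do not measure the replicate spread of each gene.

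**Figure D1:**
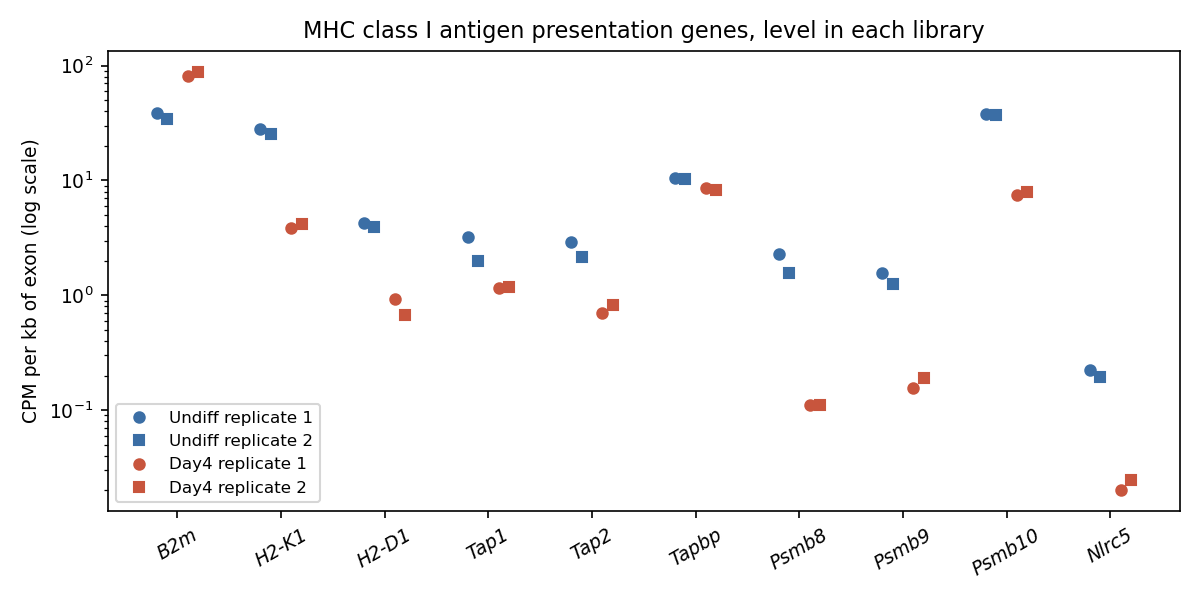
Level of each gene in each library, in CPM (counts scaled to the total on genes of each library) per kilobase of exon on a log axis, with Undiff in blue, Day4 in red and the replicates as circles and squares. For 9 genes both Day4 points lie below both Undiff points, with the widest drop for Psmb8, and for B2m both Day4 points lie above.

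The light and heavy chains moved apart. B2m, the light chain needed by every classical heavy chain at the cell surface, was at 33.6 and 29.4 CPM in Undiff and at 70.5 and 76.2 CPM in Day4. Both Day4 libraries were above both Undiff libraries, and B2m rose by a log2 fold change of 1.15 ± 0.06 (SE, n = 2 per state), or 2.22-fold (edgeR, adjusted p = 8.3e-16). H2-K1, a classical heavy chain, was at 82.5 and 74.2 CPM in Undiff and at 11.4 and 12.2 CPM in Day4. The replicates lay close together in each state, and the log2 fold change of H2-K1 was -2.79 ± 0.07, or 6.93-fold lower in Day4 (edgeR, adjusted p = 5.9e-26). H2-D1, the other classical heavy chain, was at 10.99 and 10.09 CPM in Undiff and at 2.37 and 1.74 CPM in Day4, which was 83 fragments in each Day4 library. It was 5.47-fold lower, with a log2 fold change of -2.45 ± 0.14 (edgeR, adjusted p = 2.2e-16).

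Within a library, a ratio of 2 genes does not depend on how libraries are scaled. H2-K1 per kilobase of exon was at 71.9% and 73.9% of the level of B2m in Undiff and at 4.71% and 4.70% in Day4. H2-D1 was at 10.9% and 11.5% of B2m in Undiff and at 1.12% and 0.761% in Day4. The ratio of H2-K1 to B2m was thus 15.5-fold lower in Day4 and that of H2-D1 to B2m 12.1-fold lower, with no overlap between the states. Among single genes, 42.7% of all tested also did not overlap and were lower in Day4. The percentages depend on exon lengths that take in every annotated transcript of a gene, while the fold differences do not. By counts alone, the log2 ratio of H2-K1 to B2m was 1.30 and 1.34 in Undiff and -2.63 and -2.64 in Day4. For each of the 6 gene pairs compared, the exact permutation test over the 4 libraries gave p = 0.33, which is the smallest that 2 against 2 libraries allow (0.33 after Benjamini-Hochberg adjustment).

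All 3 immunoproteasome subunits fell, and Psmb8 had the lowest log2 fold change of the 10 genes. Psmb8, the chymotrypsin-like subunit, had 285 and 169 fragments in Undiff and 13 and 18 in Day4, or 7.77 and 5.26 against 0.372 and 0.377 CPM. The Undiff libraries differed by 1.47-fold after normalization, and both stood far above Day4. Psmb8 was 18.2-fold lower, with a log2 fold change of -4.18 ± 0.21 (edgeR, adjusted p = 1.5e-15), and 6.21% of all genes tested had a lower log2 fold change. Psmb9, the subunit next to Tap1 in the genome, had 208 and 148 fragments in Undiff and 20 and 33 in Day4, and was 8.40-fold lower (log2 fold change -3.07 ± 0.20, adjusted p = 1.5e-14 in edgeR). Psmb10, encoded outside the MHC region, was the most abundant of the 3 at 65.2 and 62.7 CPM in Undiff and 12.8 and 13.5 CPM in Day4. It was 5.08-fold lower (log2 fold change -2.35 ± 0.07, adjusted p = 9.0e-25 in edgeR).

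The constitutive subunits that these replace did not show such a shift. Psmb5 was at 54.8 and 55.1 CPM in Undiff and at 57.6 and 48.2 CPM in Day4, with overlapping values and a log2 fold change of -0.13. Psmb6 and Psmb7 had log2 fold changes of -0.14 and -0.17. None of the 14 constitutive 20S core subunits was called, beside 42.8% of all genes tested. The log2 fold changes of the 14 ran from -0.65 (Psma3 and Psmb3) to 0.31 (Psmb1). Per kilobase of exon, Psmb10 was at 49.7% and 46.4% of Psmb7 in Undiff and at 10.5% and 10.8% in Day4. Psmb8 was at 3.77% and 2.54% of Psmb5 in Undiff and at 0.172% and 0.208% in Day4. Psmb9 was at 1.00% and 0.790% of Psmb6 in Undiff and at 0.104% and 0.128% in Day4. The states did not overlap in any of these ratios, which were 4.52-fold, 16.4-fold and 7.74-fold lower in Day4. Among single genes, 42.7% of all tested also did not overlap and were lower. These percentages of a partner again depend on the annotated exon lengths, such as 3381 bases for Psmb8. By counts alone, the log2 ratio of Psmb8 to Psmb5 was -2.82 and -3.39 in Undiff and -7.28 and -7.00 in Day4.

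**Figure D2:**
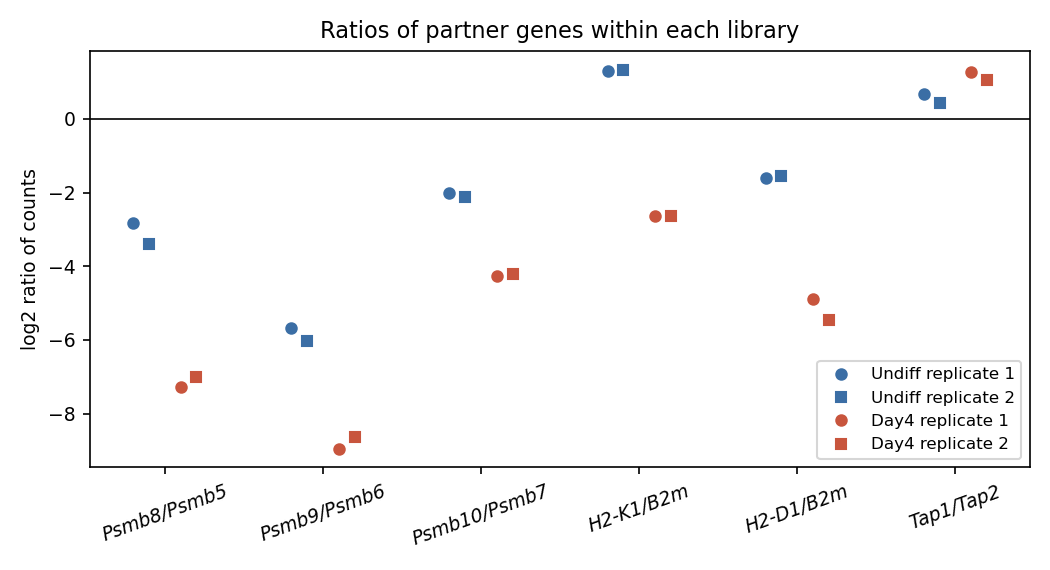
Log2 ratio of the counts of 6 gene pairs in each library, with Undiff in blue, Day4 in red and the replicates as circles and squares. In 5 pairs both Day4 points lie below both Undiff points, with differences on the log2 scale from -2.18 (Psmb10 to Psmb7) to -4.04 (Psmb8 to Psmb5), and for Tap1 to Tap2 they lie above by 0.61.

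Both subunits of the peptide transporter fell. Tap1, its first subunit, had 646 and 353 fragments in Undiff and 221 and 307 in Day4, or 14.3 ± 4.68 CPM against 6.38 ± 0.0776 CPM (mean ± SD, n = 2). The 2 Undiff libraries differed by 1.59-fold after normalization, the widest gap between Undiff replicates among the 10 genes, while the Day4 libraries were nearly equal. Tap1 was 2.36-fold lower with a log2 fold change of -1.24 ± 0.10. In the fit with a robust prior, which gave Tap1 its own wider spread, the log2 fold change was -1.27 ± 0.24 with an adjusted p of 0.0035 in edgeR. Without Undiff replicate 1 it was -0.85, and Tap1 was no longer a DEG.

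Tap2, the second subunit, was at 11.1 and 8.19 CPM in Undiff and at 2.63 and 3.12 CPM in Day4. It was 3.49-fold lower, with a log2 fold change of -1.80 ± 0.13 (edgeR, adjusted p = 3.8e-12). The log2 ratio of Tap1 to Tap2 was 0.67 and 0.42 in Undiff and 1.26 and 1.04 in Day4. Undiff replicate 1 was also the higher of the Undiff pair for Psmb8, Tap2 and Psmb9, by 1.47-fold, 1.35-fold and 1.22-fold, and H2-K1, H2-D1, B2m, Psmb10, Tapbp and Nlrc5 were higher there by smaller gaps.

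Tapbp, the bridge of the peptide-loading complex, was at 37.9 and 37.2 CPM in Undiff and at 31.1 and 29.9 CPM in Day4. The states did not overlap, but its log2 fold change of -0.37 ± 0.07 was below the threshold of a DEG (edgeR, adjusted p = 5.7e-07 for a difference from 0). Tapbp shares 14.8% of its 100-base transcript windows with other genes, chiefly Gm19412 and AC122861.4, the highest share among the 10. Fragments that could not be placed in 1 gene were left out by the authors. The share was 8.05% for Psmb8, 4.99% for Tap2, 3.59% for H2-D1, 2.73% for Psmb9, 1.93% for Tap1 and 0.957% for H2-K1, and no window was shared for B2m, Psmb10 or Nlrc5. Gm19412 overlaps Tapbp at its own locus, as Gm20496 overlaps Psmb8, and Gm15821 and Gm20496 overlap Tap2. They were not among the counted genes that share exons with the 10, so windows shared with them need not mean lost fragments.

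Nlrc5, the class I coactivator, was the least abundant of the 10 in both states. It had 70 and 53 fragments in Undiff and 6 and 10 in Day4, or 1.91 and 1.65 CPM against 0.172 and 0.210 CPM. The Day4 values stand on few fragments, though above the floor of 3. Nlrc5 was 9.52-fold lower with a log2 fold change of -3.25 ± 0.35, the widest error of the 10 (edgeR, adjusted p = 2.1e-10).

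**Figure D3:**
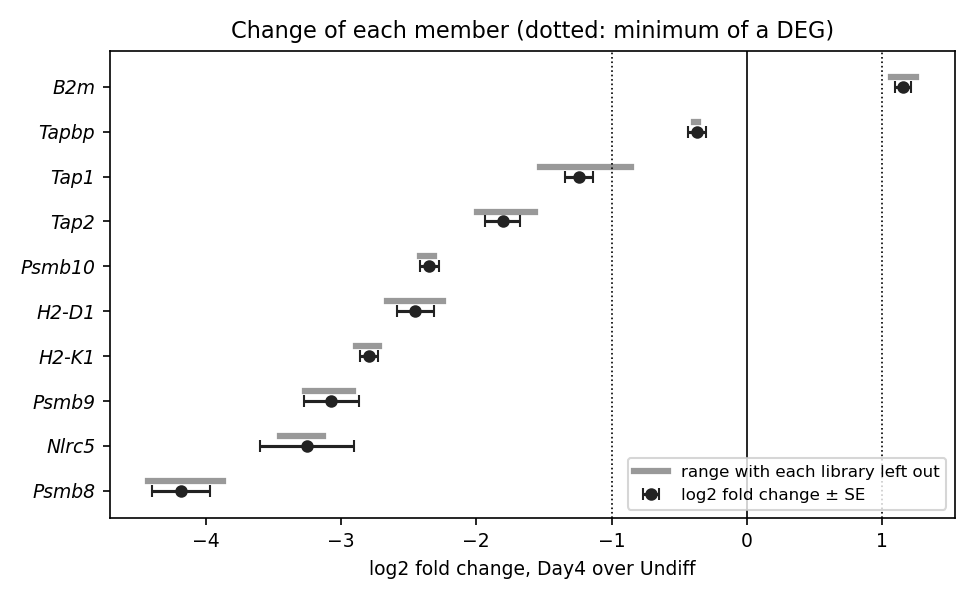
Log2 fold change of each gene in Day4 over Undiff with its standard error from the fit over all genes (black). The range obtained when each of the 4 libraries is left out in turn is in grey, with dotted lines at the threshold of a DEG. B2m alone lies to the right, Tapbp lies inside the dotted lines, and the grey range of Tap1, from -1.53 to -0.85, crosses the line.

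The order of the 10 by level also changed. This order within a state depends on exon lengths that take in every annotated transcript of a gene. On the scale of CPM per kilobase of exon, Psmb10 at 37.5 ± 1.02 and B2m at 36.6 ± 3.44 (mean ± SD, n = 2) led in Undiff with overlapping values. H2-K1 at 26.7, Tapbp at 10.4 and H2-D1 at 4.09 followed, each apart from its neighbours. Tap1 at 2.61 overlapped with Tap2 at 2.55, and Tap2 with Psmb8 at 1.93. Psmb9 at 1.40 and Nlrc5 at 0.210 came last, each apart from the gene before it. In Day4, B2m at 85.3 ± 4.67 stood alone. Tapbp at 8.41, Psmb10 at 7.71, H2-K1 at 4.02 and Tap1 at 1.16 came next, each apart from its neighbours. H2-D1 at 0.797 and Tap2 at 0.761 overlapped, and Psmb9 at 0.173, Psmb8 at 0.111 and Nlrc5 at 0.0224 were lowest.

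The log2 fold change of B2m was exceeded by many genes, with 74.2% of all genes tested below it. Among the 10061 genes with a mean of at least 10 CPM, those with the most similar course of log2 CPM over the 4 libraries were Tspan5 (distance 0.0418), Gatsl2 (0.0528), Dnajc18 (0.0543), Kif7 (0.0651) and Csrp1 (0.0692). The distance is Euclidean on log2 CPM centred over the libraries, and with 4 libraries in 2 states many genes lie near. Tspan5, for example, was at 40.0 and 34.6 CPM in Undiff and at 83.5 and 87.4 CPM in Day4.

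The position of 7 of the genes within one stretch of chromosome 17 allowed their neighbours to be counted. Between Tapbp and H2-D1 (chr17:33915899-35267499), 85 other genes were tested, of which 20 were lower DEGs and 15 were higher. The lower share was 23.5%, beside 20.6% over all genes tested, and the median log2 fold change of these neighbours was 0.00.

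The wider pathway was counted over 9 lists of 142 tested genes, none of them among the 10. Of these, 60 were DEGs (42.3%, beside 42.8% of all genes tested), with 25 higher and 35 lower in Day4, and their median log2 fold change was -0.25. The lists differed in their counts.

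Of the other class I heavy chains and related molecules, 20 were tested, 5 rose, 5 fell and 10 were not called. These shares are near those of all genes tested (22.2% higher and 20.6% lower). H2-M5 had 422 and 385 fragments in Undiff and 9 and 12 in Day4 (log2 fold change -5.58). H2-Q10, a heavy chain known as a secreted product of the liver, had 261 and 197 in Undiff and 7 and 10 in Day4 (-5.06). In the other direction, Mr1, which presents vitamin B metabolites to MAIT cells, had 18 and 16 fragments in Undiff and 252 and 303 in Day4 (3.70). H2-T23 encodes Qa-1, the ligand of the NKG2A receptor on natural killer cells, and is named after its values were seen: it had 9 and 11 fragments in Undiff and 198 and 192 in Day4 (3.96).

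The fall of the classical heavy chains in Day4 was thus not shared by every class I molecule. Cd1d1, which presents lipids, Fcgrt, the neonatal Fc receptor, and H2-Q4 were not called, at 0.59, 0.36 and -0.04 on the log2 scale. A further 11 genes of this list were at 0 in every library, which allows up to between 0.0629 and 0.0935 CPM (3 fragments, counting error only). Among them H2-Q6, H2-Q7 and H2-T22 share 13.0%, 12.0% and 31.5% of their 100-base windows with other genes, so that counts of this family are uncertain.

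Of 14 genes for folding, loading and peptide trimming, 3 fell and none rose, with a median log2 fold change of -0.20. The chaperone Canx was at 1307 and 1367 CPM in Undiff and at 641 and 642 CPM in Day4 (-1.13), and the peptidases Lap3 (-1.43) and Thop1 (-1.13) fell as well. The chaperones Calr (0.17) and Hspa5 (0.12) and the oxidoreductase Pdia3 (0.13), a partner of tapasin, were not called. Among 10 proteasome activators and assembly factors, Psme4 (-1.16) and Psmg1 (-1.05) fell and 8 were not called. These 8 include Psme2 (-0.23), a part of the interferon-inducible activator, Psme3 (-0.80), and Pomp (-0.49), which assembles the core. In both lists the share that fell was near the 20.6% of all genes tested that were lower DEGs. None rose in either list, beside 22.2% of all genes tested.

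**Figure D4:**
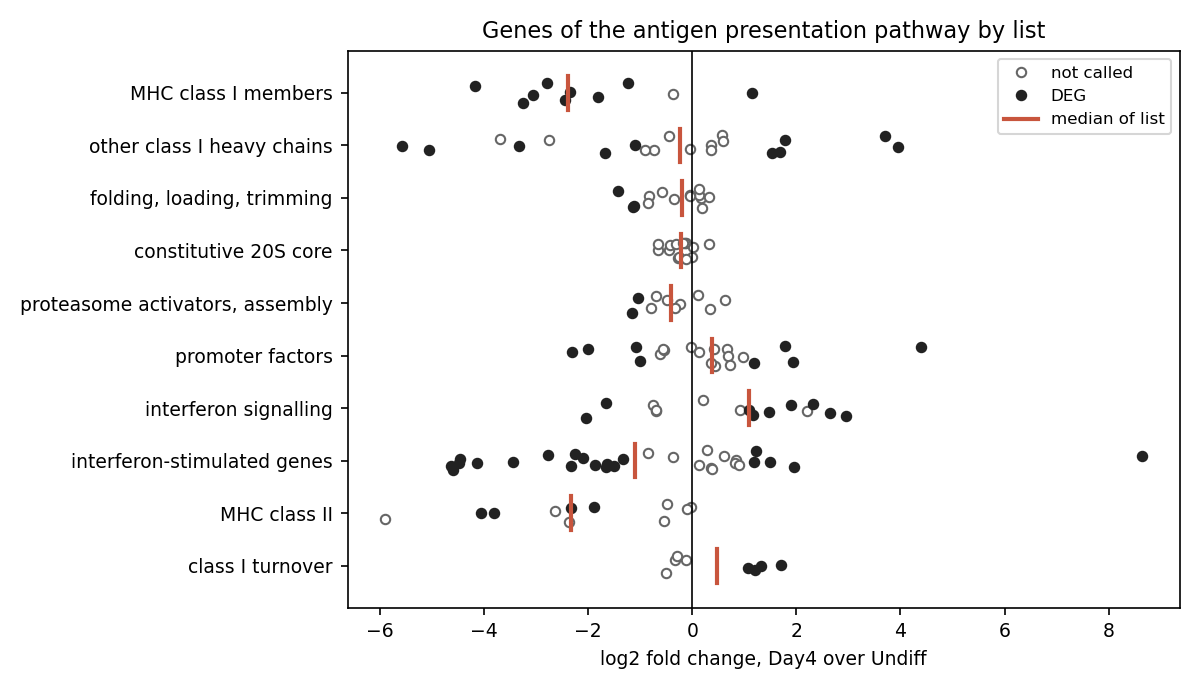
Log2 fold change in Day4 over Undiff of each tested gene of the 10 genes and of the 9 wider lists, with DEGs filled, genes not called open and the median of each list in red; the vertical scatter within a row has no meaning. The 10 genes have a median of -2.40, the constitutive 20S core lies within a narrow band around its median of -0.22 with no filled point, and interferon signalling has a median of 1.09 beside -1.10 for interferon-stimulated genes.

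Of 20 factors known to act on class I promoters, 4 rose, 4 fell and 12 were not called, which is near the shares of all genes tested (22.2% higher and 20.6% lower). Irf1, an activator of Psmb9, Tap1 and class I heavy chains, was at 89.2 and 72.7 CPM in Undiff and at 16.3 and 17.7 CPM in Day4 (log2 fold change -2.32 ± 0.06; edgeR, adjusted p = 1.1e-12). Atf1, which binds elements like the X2 box, fell (-1.08), and Rela, the p65 subunit of NF-kB, rose from 18.5 and 18.9 CPM to 75.8 and 74.8 CPM (1.94). Creb1 (0.68), Nfyb (-0.62) and Stat3 (-0.54) were not called.

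No fragment of Ifng, Ifnb1 or Ifne, which encode interferons, was counted in any library. Of 15 signalling genes tested, 7 rose and 2 fell, beside 22.2% higher and 20.6% lower over all genes tested. Ifnar1, a type I interferon receptor chain, rose from 68.4 and 72.1 CPM to 165.1 and 165.6 CPM (1.17), and the kinase Jak2 rose from 10.3 and 9.41 CPM to 80.4 and 79.9 CPM (2.95). Both chains of the interferon gamma receptor, named after their values were seen, also rose, Ifngr1 with a log2 fold change of 1.48 and Ifngr2 with 2.32. Ifnlr1, a chain of the interferon lambda receptor also named after its values were seen, fell from 406 and 316 fragments to 89 and 132 (-2.04). Il10rb, the other chain of that receptor and likewise named after its values were seen, rose from 69 and 44 fragments to 375 and 521 (2.65). Socs3, an inhibitor of cytokine signalling that is induced by leukaemia inhibitory factor, fell (-1.65). Jak1 (0.91), Ptpn2 (-0.69) and Pias1 (0.20) were not called.

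Of 30 interferon-stimulated genes, 15 fell, 5 rose and 10 were not called, with a median log2 fold change of -1.10. Over all genes tested, 20.6% were lower and 22.2% were higher. The antiviral membrane proteins Ifitm1 and Ifitm3 fell, at -1.67 and -1.88, while their relative Ifitm2 was not called at 0.90. Bst2 (tetherin), named after its values were seen, was at 88.5 and 83.3 CPM in Undiff and at 8.64 and 7.96 CPM in Day4 (-3.44). The list did not move as a block. Gbp2, an interferon-inducible GTPase, rose from 30.5 and 24.4 CPM to 79.0 and 83.5 CPM (1.49), and Iigp1, another GTPase named after its values were seen, rose from 5 and 1 fragments to 1392 and 1715 (8.64). Ifit2 (0.84) and Gbp3 (-0.36) were not called.

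Of 11 MHC class II genes tested, 4 fell and none rose, beside 20.6% lower and 22.2% higher over all genes tested. Cd74, the invariant chain, was at 6.60 and 8.54 CPM in Undiff and at 0.715 and 0.440 CPM in Day4 (-3.81), and H2-DMb1 (-4.07) and H2-Eb1 (-2.34) fell from lower levels. Ifi30 (-0.54), H2-DMa (-0.11) and H2-Ab1 (-0.02) were not called. Of 8 genes for the removal and turnover of class I molecules, 4 rose and none fell, beside the same shares. Tmem127, which takes part in class I degradation, rose from 26.1 and 24.3 CPM to 85.7 and 85.5 CPM (1.70), the protease Sppl2a rose by 1.20 and the recycling GTPase Rab11a rose by 1.07. Rnf145 (-0.34), Wwp2 (-0.51) and Arf6 (-0.29) were not called.

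Markers of the cells present moved with these results. Their counts stand beside 22.2% higher and 20.6% lower DEGs among all genes tested. All 9 pluripotency markers fell, from a summed 4677 and 4693 CPM to 27.3 and 21.3 CPM, and 9 of 10 RA response genes rose. These markers followed the names Undiff and Day4. Whether Undiff was ESCs or embryoid bodies was not tested. Of 9 fibroblast markers, 8 rose and Thy1 fell (78.3 and 71.2 to 1962 and 1800 CPM summed). Of 9 endothelial markers, 6 rose and Pecam1 and Tek fell (213.5 and 207.5 to 394.3 and 394.3 CPM summed). Of 11 visceral endoderm markers, 7 rose and Cubn and Amn fell (39.7 and 46.4 to 568.7 and 558.3 CPM summed), and Gata4 and Gata6, at 260.9 and 289.5 CPM in Day4 replicate 1, made up most of the Day4 sum. Leukocyte markers, whose cells carry high class I levels, summed to 69.8 and 70.9 CPM in Undiff and to 3.66 and 3.96 CPM in Day4. Of 14 tested, 4 fell and 10 were not called. The 4 were Laptm5, Cd68 and Coro1a, which made up most of this sum, and Itgam (CD11b), which had 89 and 82 fragments in Undiff and 2 and 5 in Day4. Ptprc (CD45), which defines leukocytes, had 2 and 5 fragments in Undiff and none in Day4. Of the other genes not called, Cd14, Lyz2 and Csf1r each had between 7 and 13 fragments in Undiff and between 2 and 11 in Day4, and C1qa had none in any library. The part of the cell types in the changes of the 10 genes was not tested. The share of uniquely aligned fragments assigned to no gene was also higher in Undiff (12.1% and 13.2%) than in Day4 (7.50% and 7.74%), and its part in these changes was not tested.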

How the data were processed

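Paired-end reads of the 4 Illumina TruSeq libraries had adapters cut off by cutadapt, were aligned by the authors with STAR 2.4.2a (version from the submitters' processing notes) to mm10, and gave counts of uniquely aligned fragments per gene by htseq-count. The deposited values are raw counts per gene symbol, without normalization. The strand option used for TruSeq genes is not given in the sources used here, so genes that overlap on opposite strands (Tap1 and Psmb9) are uncertain. The alignment reference carries single alleles of the polymorphic H2 genes, and its effect on their counts was not tested. Long-read libraries were not analysed here.

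The 10 genes and all lists were chosen with earlier results of these data known. Summary lines of the counter were left out: fragments in no gene came to between 7.50% and 13.2% and ambiguous ones to between 1.84% and 1.91% of the fragments in genes, in no gene or ambiguous. CPM is relative to all counts on genes. Exon lengths are the union of all exons annotated for a gene in GENCODE vM21, whether or not the transcripts were present here. Totals ranged from 32099074 to 47730944, so that 3 fragments, the floor, equal between 0.0629 and 0.0935 CPM. TMM scaling and the quasi-likelihood test of edgeR 4.0.16 in R 4.3.3 were applied to the 19891 genes with any count, with Benjamini-Hochberg adjustment. This test gave the calls, log2 fold changes, standard errors and fold changes. Its common biological coefficient of variation was 3.66% and its prior degrees of freedom were infinite, so the p-values of a second edgeR fit on 15893 genes (filterByExpr, robust prior, 27.4 prior degrees of freedom and 3.13 for Tap1) are printed. The study's design used DESeq2, run here as version 1.42.0 as an alternative. The edgeR test was checked on simulated counts in which every gene had the common spread. It recovered 200 of 200 changed genes with 1 false call. The check does not cover genes with a wider spread of their own. Named genes are the 10, their proteasome partners, and in each list up to 3 DEGs and 3 genes not called with the highest mean CPM. Genes with extreme values, and some receptor chains, are named beyond this rule where stated. Promoters and motifs are those of the RefSeq table. Alternatives were other scalings, a low-count filter, DESeq2, a replicate block, a test against a fold change of 2, thinned counts and leaving out each library.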

Additional observations from a re-analysis of the deposited data

How the results depend on the processing

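Of the 10 genes, the same 9 were called as DEGs under every alternative other than leaving out Undiff replicate 1, where Tap1 had a log2 fold change of -0.85 and 8 were called. All directions were kept. Leaving out each library in turn gave between 1.06 and 1.25 for B2m, -2.89 and -2.72 for H2-K1, -4.42 and -3.87 for Psmb8 and -1.53 and -0.85 for Tap1. Of the wider lists, between 49 (test against a fold change of 2) and 60 genes were called. Over all genes, DEGs numbered between 7516 (the same test) and 8544 (library totals as scaling), and 8114 with DESeq2. The fit with a replicate block called 8442 DEGs, 9 of the 10 genes and 59 wider genes and changed no call among the 10. No shared effect of the replicate numbers was visible, with a correlation of -0.01 for replicate 1 minus 2 between the states over 14643 genes. The genes are not independent replicates, and this value cannot show whether the cultures were paired. With 2 libraries per state, the error of each value rests on few samples, and Nlrc5 and Psmb8 rest on few fragments in Day4.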
